A study of Mus musculus with 6 samples.

Results

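Myc, Max and the Mxd repressors form a small network of transcription factors, and the 10 genes Myc, Mycn, Mycl, Max, Mlx, Mxd1, Mxi1 (also called Mxd2), Mxd3, Mxd4 and Mnt were taken by symbol from a count table of 16982 genes. All 10 were in the table and all 10 passed the filter on low counts, which kept 13386 genes. The RNA came from 3 WT and 3 Rnf20-/- (KO) cultures of C57BL/6 mouse embryonic fibroblasts (MEF) sampled on day 3 of reprogramming with OCT4, SOX2, KLF4 and C-MYC (OSKM). Rnf20 encodes an E3 ligase that ubiquitinates histone H2B, and the comparison asks how its loss alters gene expression early in reprogramming. The KO cells descend from embryos with floxed Rnf20 alleles and a ubiquitous tamoxifen-inducible Cre, and the deletion was induced in culture with 4-OH tamoxifen. Whether the WT cultures carried the Cre or received the drug is not given in the sources used here, and the labels list every sample as untreated. The 4 factors were delivered by retroviruses in both groups, so every culture carried a viral C-MYC transgene, and reads from it cannot be told apart from those of endogenous Myc in these counts. In the study's reprogramming protocol, infected cells were replated on inactivated MEF feeders, and whether feeder RNA is in these libraries is not stated.

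MYC proteins bind DNA as heterodimers with MAX at E-boxes, whose typical sequence is CACGTG, and mostly raise transcription of genes for growth, ribosome production and metabolism. MXD proteins and MNT compete for MAX, bind the same sites and recruit SIN3 corepressors, and several of them are known for rising as cells leave the cell cycle, with MXD3 as an exception that is found in S phase. MLX is a second MAX-like partner, which pairs with MXD1, MXD4 and MNT and with the glucose-sensing MondoA factors. C-MYC is one of the reprogramming factors, known for its effect on proliferation and for repressing fibroblast genes.

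The promoters of the members bear on this network because several of its genes carry the site the network binds. RefSeq promoter windows (GRCm38.p6, 250 bases before to 50 bases after the annotated start) were held for 9 of the 10 members, with 11 promoters in all and no entry for Myc. The E-box CACGTG, a palindrome and so the same on both strands, was found in 4 of those 9 members, against 8.09% of 27025 genes and 7.15% of 32851 promoters in the whole RefSeq table. Its first base lay 3 bases before the start in Max, 40 in Mlx, 219 in Mxd4 and 123 in Mnt. An E2F-type motif, GGCGGGAA on either strand, was found in Mxd3 alone of the 9 members, 137 bases before the start. In the whole RefSeq table it was in 2.52% of genes and 2.19% of promoters. These 5 windows are shown because they belong to the 4 members with an E-box and to the member with the largest difference between the genotypes. Each is printed 5′ to 3′ on the gene's own strand with the motif in capitals.
Max promoter, chr12:76962221-76962276, minus strand: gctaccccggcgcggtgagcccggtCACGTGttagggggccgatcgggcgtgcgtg
Mlx promoter, chr11:101087225-101087280, plus strand: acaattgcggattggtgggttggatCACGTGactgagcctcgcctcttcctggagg
Mxd4 promoter, chr5:34187899-34187954, minus strand: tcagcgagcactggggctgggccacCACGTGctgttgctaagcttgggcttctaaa
Mnt promoter, chr11:74830776-74830831, plus strand: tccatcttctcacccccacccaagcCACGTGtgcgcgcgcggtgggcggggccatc
Mxd3 promoter, chr13:55329836-55329893, minus strand: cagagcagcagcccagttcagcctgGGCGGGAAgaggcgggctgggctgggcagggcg
A CHR motif, TTTGAA on either strand, was found in Mycn alone, 14 bases before the start, against 20.2% of all genes and 17.9% of all promoters. These matches describe letters in the windows and no binding was measured.

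Library totals ran from 20545442 to 21746898 counts, so that 3 counts equal about 0.142 to 0.143 CPM, the count scaled by the TMM-normalised library size. Rnf20 itself fell from 107 ± 0.781 CPM in WT to 17.9 ± 1.29 CPM in KO (SD, n = 3 each), a log2 fold change of -2.57 (SE 0.0812, adjusted p = 0.000163). KO replicate 3 stood apart from the other KO libraries, with a mean chi-square per gene of 92.4 and 101 against KO replicates 1 and 2, where replicates 1 and 2 differed by 8.57 and the WT pairs by 6.04 to 8.92. The 4 Y-linked genes checked summed to 227 to 242 CPM in WT and 266 CPM in KO replicate 2, but to 0 and 0.0476 CPM in KO replicates 1 and 3. Fibroblast markers were abundant in every library, with a sum over 8 genes of 29972 to 32801 CPM in WT and 21369 to 39595 CPM in KO. By edgeR 2 of the 8 fell (25%, against 16.6% of all genes), Thy1 (log2 fold change -1.11, adjusted p = 0.00251) and Pdgfra (-1.22, adjusted p = 0.0185), and 0 rose (against 16.4%). By DESeq2 2 fell and 2 rose. Log2 fold changes were negative for 4 of the 8 and positive for 4. Vim (0.29, adjusted p = 0.0577 by edgeR) and Fn1 (0.56, adjusted p = 0.0697), named after their values were seen, were higher in every KO library than in every WT library. The sum of 8 macrophage markers was 47.4 to 95.5 CPM in WT, 79.0 and 50.9 CPM in KO replicates 1 and 2 and 256 CPM in KO replicate 3, and 0 of the 8 passed the test by edgeR or by DESeq2 (0 and 1 at an unadjusted p under 0.05). The 6 epithelial markers summed to 46.8 to 51.2 CPM in WT and to 41.9, 29.4 and 5.33 CPM in KO. The part of these differences in the results below was not tested. In bulk RNA, fewer cells of a type and less RNA per cell cannot be told apart.

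Across the members, 2 fell in KO (Mxd3 and Mxi1), 3 rose (Max, Mlx and Mxd4) and 5 passed the test in neither direction, with a median log2 fold change of -0.042 against -0.00032 over all genes tested. A gene passed at an adjusted p under 0.05 in edgeR's quasi-likelihood test, with the Benjamini-Hochberg method applied over all 13386 genes. At that threshold 16.6% of all genes tested fell and 16.4% rose, or 33% in either direction, so the members' shares of 20% and 30% are of the order of the background for 10 genes. Libraries of the 2 genotypes did not overlap in 6 members, 3 lower and 3 higher in KO, where 28.2% of all genes were lower and 26.6% higher without overlap, or 54.8% in all. Only Mxd3 also met the stricter rule of the study's RNA-seq methods (FDR under 0.01, more than 2-fold, and mean FPKM above 1 in WT or KO), under which 2.08% of all genes were lower and 1.5% higher. The FDR here was the adjusted p of edgeR, so these shares are not the study's own counts of changed genes. With the FDR of 0.01 and no other threshold, where 4.89% of all genes were lower and 4.98% higher, Mxd3 was likewise the member that remained.

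**Figure D1:**
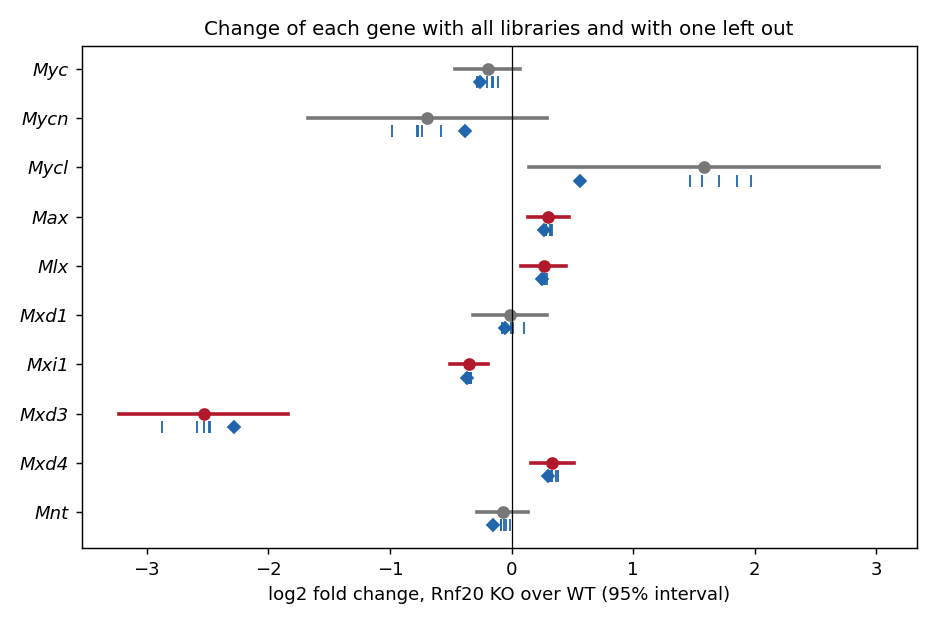
Log2 fold change (x axis, KO over WT) of the 10 members, with circles and bars for the estimate and 95% interval of edgeR's quasi-likelihood fit of 3 WT and 3 KO libraries (red where the adjusted p was under 0.05) and blue marks for the fits with 1 library left out (diamonds, without KO replicate 3). Mxd3 lies at -2.53, far from the other members that passed, which lie between -0.35 and 0.34, and the intervals of Mycl and Mycn are the widest.

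Of the MYC genes, Myc had the highest CPM and did not pass the test. Myc (ENSMUSG00000022346, GRCm38 chr15:61985391-61990374, plus strand), the oncogene that is also 1 of the 4 delivered factors, was at 443, 527 and 535 CPM in WT and at 446, 390 and 479 CPM in KO. The ranges overlapped, with KO replicates 1 and 3 above the lowest WT library. Means were 502 ± 51.2 and 438 ± 45.0 CPM, a log2 fold change of -0.20 (SE 0.112, 95% interval -0.46 to 0.07, adjusted p = 0.215), so the interval runs from a fall to 0.726 times WT to a rise to 1.05 times. Without KO replicate 3 the log2 fold change was -0.26 and passed (adjusted p = 0.0314), and KO replicate 2 alone against WT gave -0.36 (adjusted p = 0.0379).

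Mycl (ENSMUSG00000028654, chr4:122995652-123002485, plus strand), the L-MYC gene, which can stand in for C-MYC in reprogramming mixes, missed the threshold, with KO libraries far apart. It was at 3.09, 3.61 and 4.27 CPM in WT and at 4.25, 6.55 and 22.1 CPM in KO. KO replicate 1 fell within the WT range, replicate 2 above it and replicate 3 far above both. The log2 fold change was 1.58 (SE 0.604, 95% interval 0.14 to 3.02, adjusted p = 0.0856). It was 0.56 without KO replicate 3 (adjusted p = 0.0795) and 1.97 without KO replicate 1, where it passed (adjusted p = 0.0352), and it passed by DESeq2 (adjusted p = 0.0168), by edgeR's exact test (adjusted p = 0.0332) and with KO replicate 2 alone against WT (0.84, adjusted p = 0.0330). The macrophage markers were also highest in KO replicate 3, and their part in the Mycl value was not tested.

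Mycn (ENSMUSG00000037169, chr12:12936093-12941914, minus strand), the N-MYC gene of neural and embryonic cells, was close to the detection limit. It had 17, 18 and 22 counts in WT and 13, 16 and 6 counts in KO, or 0.808, 0.854 and 1.04 CPM against 0.621, 0.760 and 0.286 CPM. All KO libraries lay below all WT libraries, but the log2 fold change of -0.69 had an interval of -1.68 to 0.29 (SE 0.413, adjusted p = 0.231), and a difference was not detectable at this depth.

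Both dimerisation partners rose slightly. Max (ENSMUSG00000059436, chr12:76937269-76962201, minus strand), the shared partner that MYC, MXD and MNT proteins need to bind DNA, was at 82.4, 82.4 and 89.1 CPM in WT and at 103, 101 and 109 CPM in KO. Every KO library was above every WT library. The means were 84.6 ± 3.84 and 104 ± 4.32 CPM, 1.23 times higher in KO (95% interval 1.10 to 1.39, log2 fold change 0.30, SE 0.0710, adjusted p = 0.0213). Mlx (ENSMUSG00000017801, chr11:101087277-101092207, plus strand), the partner of the MondoA factors, was at 22, 20.9 and 21.7 CPM in WT and at 26.3, 24.9 and 26.4 CPM in KO, again without overlap. Its log2 fold change was 0.26 (SE 0.0789, 95% interval 0.08 to 0.45, adjusted p = 0.0432).

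The call of Max rested on all 3 WT libraries, since its adjusted p was 0.0886, 0.0862 and 0.0578 without WT replicate 1, 2 or 3, and Mlx passed when KO replicate 3 was left out but in none of the other 5 leave-one-out fits, where its adjusted p was between 0.067 and 0.138. Of all 14 alternative fits Mlx passed in 4, and it was also lost with library size alone (0.0970), by the exact test (0.107), with no filter (0.0675), with KO replicate 2 alone (0.142) and with the replicate block (0.0987). Mlx shares 385 exon bases with Psmc3ip on the opposite strand, and the strand setting of the counting is not stated. Psmc3ip was at 3.56 to 7.02 CPM in KO and 7.08 to 9.68 CPM in WT (log2 fold change -0.51, adjusted p = 0.206).

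**Figure D2:**
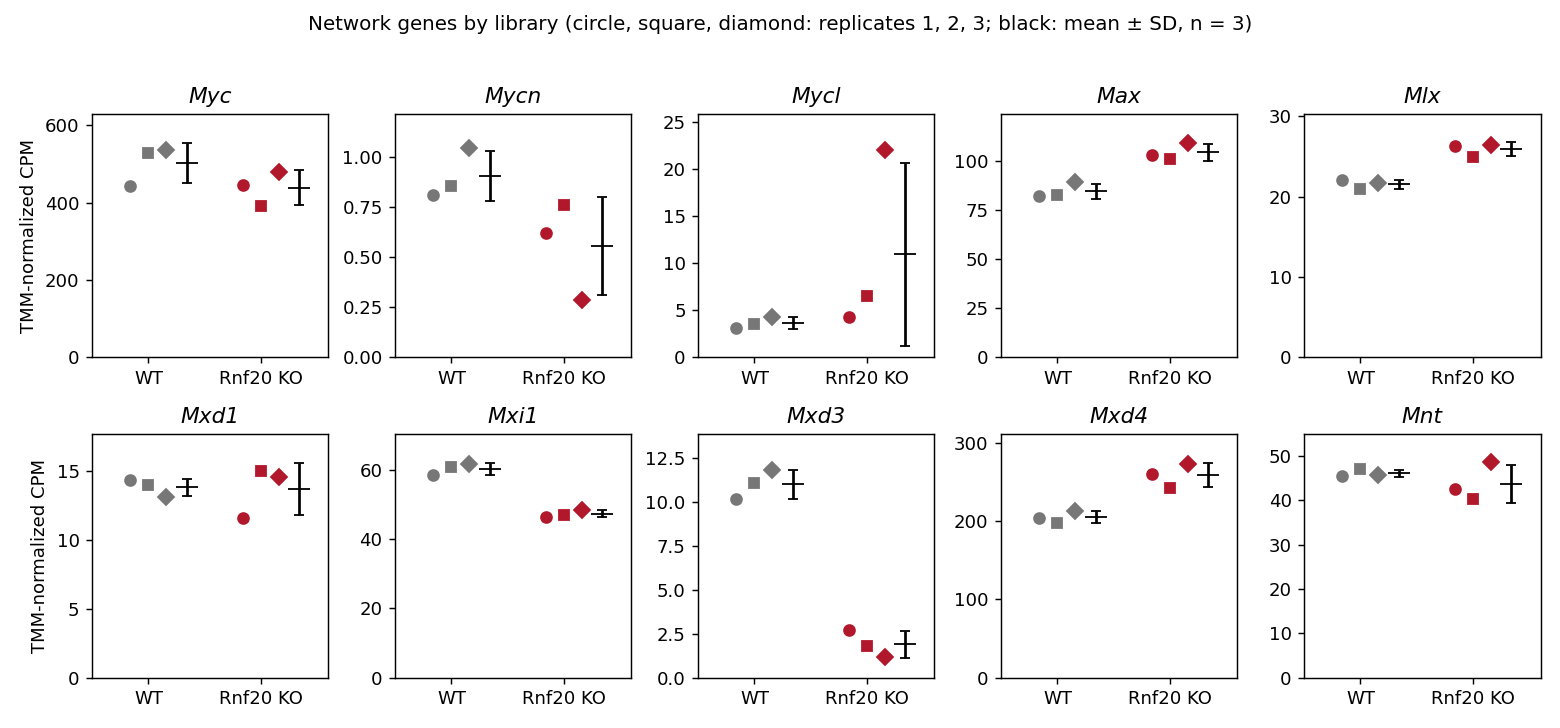
CPM of each member in the 3 WT and 3 KO libraries, with replicates 1, 2 and 3 as circle, square and diamond and the group mean ± SD in black. KO points lie below all WT points for Mxd3, Mxi1 and Mycn and above them for Max, Mlx and Mxd4, and KO replicate 3 stands alone at 22.1 CPM for Mycl.

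The repressors split, with Mxd3 and Mxi1 lower in KO, Mxd4 higher, and Mxd1 and Mnt passing in neither direction. Mxd3 (ENSMUSG00000021485, chr13:55325168-55329823, minus strand), the S-phase member of the MXD family, was at 10.2, 11.1 and 11.8 CPM in WT and at 2.72, 1.80 and 1.19 CPM in KO. These rest on 214, 234 and 249 counts against 57, 38 and 25 counts, and the highest KO library was still far below the lowest WT library. Means were 11 ± 0.824 and 1.91 ± 0.770 CPM, so KO held 17.3% of the WT level, and WT was 5.78 times higher (95% interval 3.57 to 9.34, log2 fold change -2.53, SE 0.291, adjusted p = 0.00357). Mxd3 was the member that passed in all 14 alternative fits, with log2 fold changes from -2.87 to -2.28 and adjusted p from 2.21e-14 to 0.0303. It shares 105 exon bases with Prelid1 on the opposite strand, which was at 211 to 252 CPM in WT and 219 to 283 CPM in KO (log2 fold change 0.065, adjusted p = 0.698).

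Mxi1 (ENSMUSG00000025025, chr19:53310518-53375810, plus strand), a MAX-binding antagonist of MYC, was at 58.4, 60.7 and 61.6 CPM in WT and at 46.4, 47.0 and 48.4 CPM in KO. The 2 ranges were narrow and well apart. The means of 60.2 ± 1.68 and 47.3 ± 1.03 CPM gave a log2 fold change of -0.35 (SE 0.0656, 95% interval -0.51 to -0.19, adjusted p = 0.0110). The adjusted p was 0.0525 without WT replicate 2 and 0.0563 without WT replicate 3. An overlapping gene on the other strand, Gm10197, had 0 to 3 counts per library.

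Mxd4 (ENSMUSG00000037235, chr5:34173883-34187720, minus strand), the member linked to differentiated and resting cells, was the most abundant repressor and rose. It was at 204, 198 and 214 CPM in WT and at 261, 243 and 273 CPM in KO, without overlap. The means of 205 ± 7.94 and 259 ± 15.2 CPM differed by a log2 fold change of 0.34 (SE 0.0737, 95% interval 0.16 to 0.51, adjusted p = 0.0172). Its adjusted p was 0.0729, 0.0784 and 0.0587 without WT replicate 1, 2 or 3. It shares 514 exon bases with the antisense gene Gm42846, for which the count table holds no row.

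Without any 1 of the WT libraries the calls over all genes also dropped, from 2218 lower and 2195 higher to between 702 and 994 lower and between 694 and 953 higher, so the lost calls of Max, Mxd4 and Mxi1 came with fewer calls over all genes.

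Mxd1 (ENSMUSG00000001156, chr6:86647042-86669161, minus strand), the founding MXD gene, was at 14.3, 14 and 13.1 CPM in WT and at 11.6, 15.0 and 14.5 CPM in KO. KO replicate 1 lay below the WT range and replicates 2 and 3 above it, and the log2 fold change was -0.01 (SE 0.128, 95% interval -0.32 to 0.29, adjusted p = 0.949). Mnt (ENSMUSG00000000282, chr11:74830920-74845725, plus strand), a broadly expressed MAX partner, was at 45.4, 47.0 and 45.6 CPM in WT and at 42.4, 40.3 and 48.5 CPM in KO. Its ranges also overlapped (log2 fold change -0.07, SE 0.0890, 95% interval -0.29 to 0.14, adjusted p = 0.548).

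The fall of Mxd3 stood beside a fall of cell cycle genes. The study had already reported cell cycle genes, Cdk1 among them, as downregulated in its day 3 RNA-seq. The share of the list below is therefore not independent of that report. All 10 cell cycle genes of a list chosen for this report fell (median log2 fold change -1.52), where 16.6% of all genes did, and all 10 fell without KO replicate 3 (median -1.26), but 6, 5 and 5 fell without WT replicate 1, 2 or 3. These fits were chosen after seeing the data. Their summed level was 1454 to 1527 CPM in WT and 637, 555 and 242 CPM in KO replicates 1, 2 and 3. On the log2(CPM + 0.5) scale, Mxd3 differed from the WT mean by -1.84, -2.32 and -2.77 in KO replicates 1, 2 and 3. The mitotic kinase gene Cdk1 gave -1.12, -1.27 and -1.98, the cyclin gene Ccnb1 -1.23, -1.42 and -2.90, and the proliferation marker Mki67 -1.52, -1.78 and -3.74. All 4 genes were lowest in KO replicate 3, the library that stood apart, and all 4 were next lowest in KO replicate 2. E2f1, of the same list and named after its values were seen, had the opposite order, at -0.93, -0.78 and -0.51 in KO replicates 1, 2 and 3. Mxd3 was -2.28 without KO replicate 3 and passed (adjusted p = 1.36e-05). With 3 KO libraries no relation between Mxd3 and these genes was tested.

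**Figure D3:**
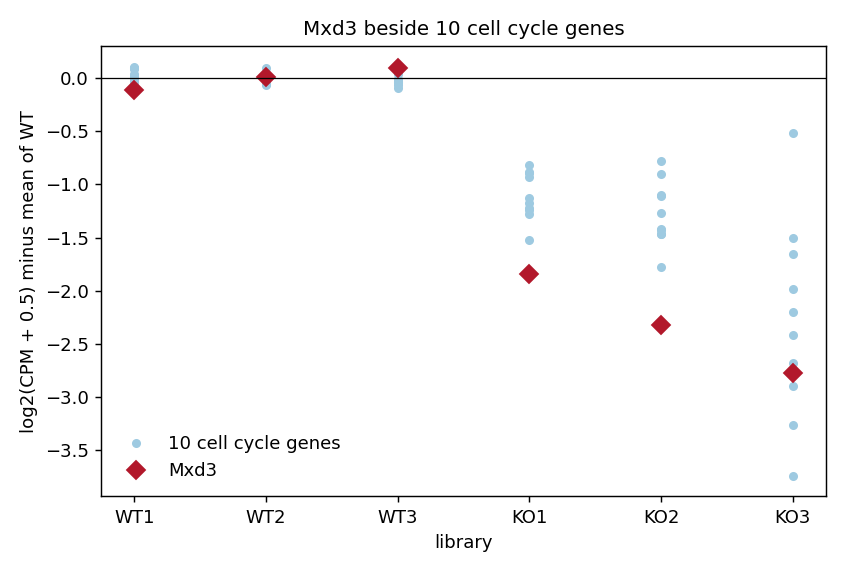
Log2 difference from the WT mean (y axis, pseudocount 0.5 CPM) of Mxd3 (red diamonds) and the 10 cell cycle genes (blue circles) in each library. In KO all genes lie below the WT libraries, and Mxd3 goes from -1.84 in KO replicate 1 to -2.77 in KO replicate 3.

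Levels between genes were compared on the deposited FPKM scale, which is per length, as a description with no test. In WT the order was Myc at 388 ± 47.7 FPKM, Mxd4 at 56.9 ± 2.0, Max at 52.3 ± 3.34, Mlx at 13.9 ± 0.543, Mxi1 at 13.7 ± 0.406, Mnt at 9.79 ± 0.682, Mxd3 at 9.19 ± 0.791, Mxd1 at 3.30 ± 0.150 and Mycl at 1.41 ± 0.497 FPKM. Neighbours whose WT libraries overlapped were Mxd4 and Max, Mlx and Mxi1, and Mnt and Mxd3. Mycn was not listed in the FPKM table, and its counts per length gave a WT mean of 0.338 RPKM. In KO the means were 322 ± 43.2 for Myc, 73.2 ± 3.34 for Mxd4, 61.8 ± 1.87 for Max, 16.4 ± 0.972 for Mlx, 10.6 ± 0.148 for Mxi1, 9.93 ± 1.80 for Mnt, 3.36 ± 2.99 for Mycl, 3.24 ± 0.408 for Mxd1 and 1.61 ± 0.623 FPKM for Mxd3. Mxd3 lay beside Mnt in WT, and its KO libraries, at 2.28, 1.52 and 1.04 FPKM, overlapped those of Mycl, at 1.29, 2.0 and 6.78 FPKM. Myc ranked 172 to 196 of 12633 genes by FPKM in WT and 230 to 270 in KO. Its FPKM was 1.67 to 1.86 times the RPKM from counts, where the median over genes was 1.22 to 1.26, so the Myc level carries more uncertainty from the length used than those of other genes.

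**Figure D4:**
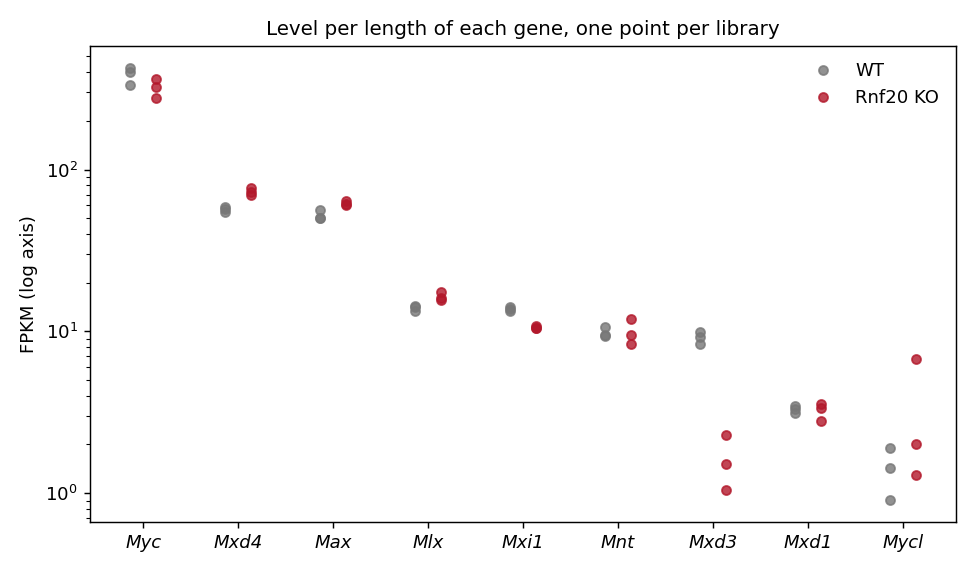
FPKM of the 9 listed members on a log axis in each WT and KO library, ordered by the WT mean. Myc lies above all others and Mxd3 drops from between 8.36 and 9.94 FPKM in WT to between 1.04 and 2.28 FPKM in KO.

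The makeup of the repressor pool differed while its FPKM sum moved little. In CPM, which is not per length, the pool summed to 331 to 346 in WT and 347 to 386 in KO, without overlap. Mxd1, Mxi1, Mxd3, Mxd4 and Mnt summed to 91.3, 92.0 and 95.5 FPKM in WT and to 98.2, 94.1 and 103 FPKM in KO, and these ranges overlapped. Mxd4 made up 62.1%, 59.8% and 61.8% of that sum in WT and 74.4%, 74.3% and 74.2% in KO. Mxd3 made up 9.16%, 10.1% and 10.4% in WT and 2.32%, 1.61% and 1.01% in KO. The sum of Myc and Mycl was 3.68, 4.4 and 4.49 times the repressor sum in WT and 3.31, 2.98 and 3.60 times in KO, with all KO libraries below all WT libraries. On the RPKM scale, where the Myc and Mycl sum also held Mycn, the ratios were 2.25, 2.68 and 2.60 in WT. They were 2.13, 1.98 and 2.24 in KO, with KO replicate 3 close to WT replicate 1. The repressor sum was 1.81, 1.82 and 1.70 times the Max level in WT and 1.6, 1.56 and 1.62 times in KO. These are ratios of RNA, and viral C-MYC is part of the Myc term.

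Of 8 genes of the wider network, which encode MondoA factors, MGA and the SIN3, NCoR and histone deacetylase corepressors, 7 were tested, 1 fell (14.3%, against 16.6% of all genes) and 0 rose (against 16.4%) by edgeR (median log2 fold change -0.20), and at an unadjusted p under 0.05 by edgeR, or by DESeq2 with adjustment, 1 rose. Sin3a, the scaffold that MXD proteins recruit, was at 89.0 ± 3.25 CPM in WT and 69.2 ± 8.34 CPM in KO (log2 fold change -0.36, SE 0.102, adjusted p = 0.0358), and its call was lost in each fit that left out a WT library and without KO replicate 2. Sin3b, its paralog, was at 80.9 ± 1.62 and 93.5 ± 3.81 CPM (log2 fold change 0.21, adjusted p = 0.0508). The MondoA and MLX targets Txnip and Arrdc4, which respond to glucose, were at 139 ± 1.58 against 124 ± 22.6 CPM (adjusted p = 0.388) and 20.5 ± 1.90 against 27.2 ± 11.8 CPM (adjusted p = 0.293).

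Of 17 genes for MYC cofactors and turnover, 3 fell (17.6%, against 16.6% of all genes) and 2 rose (11.8%, against 16.4%), with a median log2 fold change of -0.26. Cip2a, which protects MYC from dephosphorylation, fell from 57.2 ± 2.78 to 19.0 ± 6.91 CPM (log2 fold change -1.59, SE 0.263, adjusted p = 0.00782) and kept its call in every leave-one-out fit. Usp28, a deubiquitinase that stabilises MYC, fell from 39.6 ± 3.74 to 20.1 ± 4.53 CPM (log2 fold change -0.98, adjusted p = 0.0102). Skp2, a ubiquitin ligase subunit of MYC and of cell cycle inhibitors, fell from 46.5 ± 4.27 to 20.7 ± 8.33 CPM (log2 fold change -1.17, adjusted p = 0.0280), with an adjusted p of 0.077 to 0.0993 when a WT library was left out. Fbxw7, the ligase subunit that marks phosphorylated MYC for degradation, rose from 34.1 ± 1.32 to 44.8 ± 2.02 CPM (log2 fold change 0.39, adjusted p = 0.0117). Usp28 lost its call without WT replicate 3 (adjusted p = 0.0509) and Fbxw7 without WT replicate 1 (adjusted p = 0.0538) or 3 (adjusted p = 0.0546).

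Of 25 tested genes commonly described as activated by MYC, 7 fell (28%) and 3 rose (12%), with a median log2 fold change of -0.08, and the background was 16.6% and 16.4%. Cdk4, the G1 kinase gene, was at 345, 351 and 358 CPM in WT and at 247, 252 and 235 CPM in KO (log2 fold change -0.52, SE 0.0643, adjusted p = 0.00395). Slc19a1, the folate carrier, fell by 0.65 on the log2 scale (adjusted p = 0.00641), and Shmt2, the mitochondrial serine hydroxymethyltransferase, fell by 0.55 (adjusted p = 0.00972). Nop56, Fbl and Gnl3, nucleolar proteins, and Rcc1, the RAN exchange factor, were the other 4 that fell, with log2 fold changes of -0.48 to -0.32. These 4 were named after their values were seen. Ccnd2, the gene for cyclin D2, rose from 1014 ± 55.9 to 1997 ± 162 CPM (log2 fold change 0.98, SE 0.0944, adjusted p = 0.00276). Bop1, a ribosome biogenesis factor, rose by 0.52 on the log2 scale (adjusted p = 0.00739), and Tfrc, the transferrin receptor, by 0.49 (adjusted p = 0.00972). Shmt2 lost its call without WT replicate 3 (adjusted p = 0.0508) and Tfrc without WT replicate 2 (0.0505) or 3 (0.0533). Nop56, Fbl and Rcc1 lost theirs without any 1 of the WT libraries (adjusted p of 0.0675 to 0.136), and Fbl (0.0573) and Rcc1 (0.102) also without KO replicate 2. Gnl3 lost its call without WT replicate 2 or 3 and without KO replicate 1 or 2 (adjusted p of 0.0544 to 0.140), by the exact test (0.0570) and with KO replicate 2 alone (0.179). With the replicate number as a block, none of these 4 passed (adjusted p of 0.0547 to 0.0789). Genes of the list thus moved in both directions.

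Of 7 genes commonly described as repressed by MYC, 4 rose (57.1%, against 16.4% of all genes) and 0 fell by edgeR, with a median log2 fold change of 0.91, and by DESeq2 the counts were also 4 and 0 (at an unadjusted p under 0.05, 0 fell by these tests and 1 by edgeR's exact test). Cdkn1a, which encodes the cell cycle inhibitor p21, was at 479, 439 and 477 CPM in WT and at 1186, 1180 and 1508 CPM in KO (log2 fold change 1.47, SE 0.119, adjusted p = 0.00182). Cdkn2b, which encodes the inhibitor p15, rose from 30.3 ± 3.13 to 78.9 ± 21.3 CPM (log2 fold change 1.38, adjusted p = 0.00548). Ndrg1, a stress-responsive gene, rose from 21.4 ± 0.747 to 62.1 ± 15.0 CPM (log2 fold change 1.53, adjusted p = 0.00349). Gadd45a, a growth arrest gene, rose from 16.4 ± 1.20 to 30.8 ± 11.7 CPM (log2 fold change 0.91, adjusted p = 0.0356), and its call was lost without any 1 of the WT libraries (adjusted p of 0.0965 to 0.121) and without KO replicate 2 (adjusted p = 0.0509). Cdkn1a and Gadd45a are also known p53 targets. Cdkn1c, which encodes the inhibitor p57 and was named after its values were seen, went the other way, at 165, 199 and 196 CPM in WT and at 88.4, 115 and 10.9 CPM in KO. It missed the threshold with all libraries (log2 fold change -1.39, adjusted p = 0.168) and passed without KO replicate 3 (-0.88, adjusted p = 0.000144). The share of these values that MYC or the MXD proteins set was not tested.

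**Figure D5:**
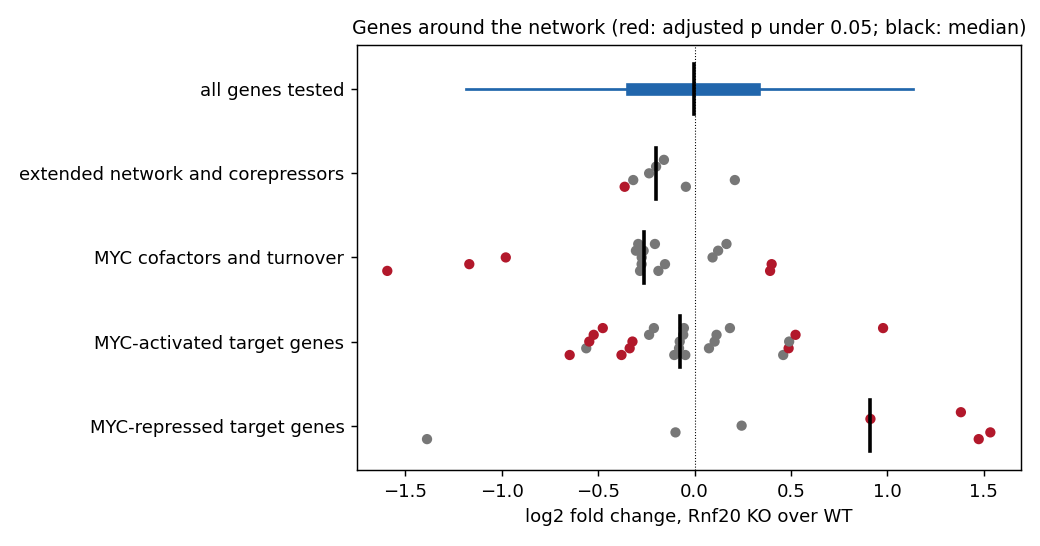
Log2 fold change (x axis, KO over WT) of every tested gene in 4 lists around the network, in red where it passed by edgeR, with the list median as a black line and, for all genes tested, bars from the 5th to the 95th and the 25th to the 75th percentile. The 7 genes repressed by MYC have the highest list median, 0.91, and the genes activated by MYC lie on both sides of 0.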

How the data were processed

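RNA-seq libraries of 3 WT and 3 KO cultures were grouped by the sample titles, and day 3 was taken from the labels. The authors prepared stranded poly(A) libraries and aligned reads to mm10 with HISAT2 2.1.0, and FPKM was computed with Cufflinks 2.1.1, as their processing notes and methods say. The authors deposited raw counts per gene and FPKM for 12633 genes. The deposited log2 fold changes and p-values of their own comparison were not used. The counting program and its strand setting are not given in the sources used here.

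Counts of 16982 genes were tested in R 4.3.3 with edgeR 4.0.16 (TMM, filterByExpr, quasi-likelihood test without covariates), with Benjamini-Hochberg adjustment over 13386 genes and 3 libraries per group. An SE is the size of a log2 fold change over the root of its F statistic. CPM and RPKM were computed from counts, and FPKM was used for levels between genes. Nothing in the sources says that the replicates came from separate embryos, so p-values measure the spread between these samples. Y-linked RNA was at 227 CPM or more in every WT library but at 0 and 0.0476 CPM in KO replicates 1 and 3. The comparison of the genotypes is thus not balanced for it, and its part was not tested. Total counts were 20545442 to 21746898 per library, and the precision given by 3 counts is for counting error only. In counts simulated for this comparison with 200 of 13275 genes changed by a log2 fold of 2, the test recovered 95.5% and called 9 unchanged genes. The simulation held changes of that size only and no library that stood apart. It therefore gives no recovery rate for changes as small as those of Max, Mlx, Mxi1 and Mxd4.

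The members and gene lists were chosen with earlier results of these data known. Named genes are all members, Rnf20, genes of the lists that passed (up to 6 of a list by smallest p), Txnip, Arrdc4, Cdk1, Mki67 and Ccnb1. A result under this rule is left out of the text, though the list counts include it. Cip2a is listed under its older symbol C330027C09Rik, and 1 MYC-activated gene of the list, Nme1, matched no row. Endothelial markers summed to 48.3 to 59.0 CPM in WT and 32.3 to 66.9 CPM in KO, and 3 muscle and neural markers to 2.04 to 2.33 and 2.62 to 6.13 CPM. Positions came from GENCODE M21 (GRCm38) and promoters from RefSeq (GRCm38.p6). Alternatives were RLE factors, library size alone, edgeR's exact test, DESeq2 1.42.0, other filters and thresholds, the replicate number as a block, each library left out, and KO replicate 2 alone.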

Additional observations from a re-analysis of the deposited data

How the results depend on the processing

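With all libraries, 2 members fell and 3 rose. When 1 library was left out, 1 to 3 members fell and 0 to 3 rose, 0 to 1 genes of the extended network fell and 0 to 1 rose, 1 to 7 cofactors fell and 0 to 5 rose, 2 to 10 activated targets fell and 2 to 4 rose, and 0 to 1 repressed targets fell and 3 to 4 rose. Calls over all genes moved as well. They ran from 702 lower and 694 higher of 13591 without WT replicate 3 to 3280 lower and 3230 higher of 13529 without KO replicate 3. At an adjusted p under 0.01, where 4.89% of all genes fell and 4.98% rose, 1 member fell and 0 rose, 0 extended network genes fell, and 1 cofactor fell and 0 rose. Of the activated targets 3 fell, while Ccnd2, Bop1 and Tfrc rose, and of the repressed targets Cdkn1a, Cdkn2b and Ndrg1 rose. Under the study's rule, where 2.08% of all genes fell and 1.5% rose, 1 member fell and 0 rose, 0 extended network genes fell, and 1 cofactor fell and 0 rose. Under it 0 activated targets fell and 0 rose, and the repressed targets Cdkn1a, Cdkn2b and Ndrg1 rose. One extended network gene, Sin3b, rose (1 against 0) with RLE factors, DESeq2 and the mean CPM filter. With library size alone 7 cofactors fell, but calls over all genes also went from 2218 to 2684 lower of 13386, and the median of all genes shifted to -0.06. KO replicate 2 alone, where the spread is taken from the WT libraries, gave 4 cofactors higher and 1 repressed target (Cdkn1c) lower. The cause was not tested.

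Same-numbered WT and KO libraries had deviations correlated at -0.066, 0.037 and 0.011, where differently numbered pairs ran from -0.069 to 0.072. No sign of pairing by replicate number was seen, but 3 libraries per group, with KO replicate 3 apart, cannot exclude it. With the number as a block, 2 members fell and 2 rose (Mlx was lost, adjusted p = 0.0987), and 0 extended network genes fell. Of the activated targets 3 fell, while Ccnd2, Bop1 and Tfrc still passed as higher (adjusted p of 0.0235, 0.0313 and 0.0249). Skp2 (adjusted p = 0.0532) and Gadd45a (adjusted p = 0.0517) were lost, and calls over all genes went from 2218 lower and 2195 higher to 1490 and 1385.

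Some genes that did not pass with all libraries changed sign in some fits. In fits leaving out 1 library, log2 fold changes ran from -0.078 to 0.10 for Mxd1 (0.013 without WT replicate 1), from -0.24 to 0.14 for Ndrg2 (0.039 without KO replicate 1), from -0.15 to 0.0034 for Nop16, from -0.13 to 0.0079 for Pa2g4, from -0.0059 to 0.29 for Ldha and from -0.10 to 0.030 for Hspd1. With KO replicate 2 alone they were 0.12 for Mxd1, 0.016 for Srm, -0.048 for Ldha, 0.011 for Hspd1 and -0.11 for Arrdc4. Over all alternatives 13 gene values changed sign, 96 lost the call, 38 gained it and 940 kept both direction and call. Mycn had no value with the mean CPM filter, and it rests on 6 to 22 counts per library.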
